A study of Mus musculus with 6 samples.

Results

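The miR-34 and miR-449 family was read by 6 of the 1078 mouse microRNA (miRNA) reporters on these arrays, and its members were chosen by name: mmu-miR-34a, mmu-miR-34b-5p, mmu-miR-34b-3p, mmu-miR-34c, mmu-miR-34c* and mmu-miR-449a, written below without the prefix for mouse. The asterisk of the older nomenclature stands for the arm of a hairpin that was named as its minor product. Each array held RNA of cultured vascular smooth muscle cells (VSMCs), which contract the vessel wall. The source was the abdominal aorta of 8-week-old mice of the strain C57BL/6. No transgene or deletion is given for either group. Untreated cultures (n = 3) were compared with cultures given TNF-α (n = 3), a cytokine of inflammation. The cells were passaged several times before harvest, and no dose or duration of TNF-α is given in the sources used here. The cultures are described as independently grown, but the descriptions number them 1 to 3 among controls and give the number 3 to 2 of the TNF-α cultures. In bulk RNA of a culture, fewer expressing cells and less RNA per cell cannot be told apart.

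miRNAs guide Argonaute proteins to partly complementary sites in mRNAs, mostly through the seed, bases 2 to 8 from the 5′ end, and lower the output of those mRNAs. Transcription of the miR-34a gene, and of the gene that carries miR-34b and miR-34c, is induced by the tumour suppressor p53 after DNA damage. miR-34 miRNAs lower cyclin-dependent kinases, cyclins, MET, BCL2 and the deacetylase SIRT1, and they promote cell cycle arrest and senescence. In arteries miR-34a is known for its rise with ageing and for its link to senescence of VSMCs. miR-449a shares the seed of miR-34a, comes from a gene induced by E2F1, and is abundant with miR-34b and miR-34c in multiciliated epithelium.

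Mature sequences were found in RefSeq (GRCm38.p6) for 5 of the 6 members, all except miR-34c. They are shown because the seed divides the family into groups that the reporters read separately. Capitals mark the seed, and all sequences run 5′ to 3′.
miR-34a: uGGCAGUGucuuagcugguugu
miR-34b-5p: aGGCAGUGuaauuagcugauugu
miR-449a: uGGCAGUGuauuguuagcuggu
miR-34b-3p: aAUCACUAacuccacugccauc
miR-34c*: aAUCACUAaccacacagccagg

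The seed GGCAGUG of miR-34a, miR-34b-5p and miR-449a occurred in 4 of the 1679 mature mouse sequences of that table, and the 4th was miR-449c. The seed AUCACUA was held by miR-34b-3p and miR-34c* alone in the table. miR-34c had no sequence there, so its seed was not read and these counts do not place it in or outside a seed group. The sequence of miR-449b was not looked up, so the counts do not place it either. Counted from the 5′ end without gaps, miR-34a had 15 of 22 bases in common with miR-449a and 11 of 22 with miR-34b-5p. miR-34b-3p and miR-34c* had 17 of 22 in common. miR-34b-5p has 23 bases and miR-34a 22, so a count without gaps can understate how alike these are. Probe sequences were not used here, so how well a reporter separates such relatives was not tested.

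The members come from 3 loci (coordinates of GRCm38.p6). The Mir34a hairpin lies on the plus strand at chr4:150068454-150068555, within no gene of the RefSeq table and between Gm13067 and Gpr157. Its sequence is shown for its pair of arms, in capitals, of which the first is miR-34a and the second miR-34a*.
Mir34a hairpin: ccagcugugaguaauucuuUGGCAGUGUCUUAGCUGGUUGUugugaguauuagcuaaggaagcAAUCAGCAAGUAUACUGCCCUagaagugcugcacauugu

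Mir34c (chr9:51103034-51103110) and Mir34b (chr9:51103562-51103645) lie 451 bases apart on the minus strand, within the spans of both Hoatz and Btg4. Mir449a (chr13:113037534-113037624, plus strand) lies 1442 bases after Mir449c within the span of Cdc20b. Exons and introns are not resolved by the table.

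The median density ranged from 74.7 to 82.7 among control arrays and from 85.9 to 97.2 among TNF-α arrays. The background peak, where most dim reporters lie, lay between 66.6 and 77.8 on control arrays and between 82.6 and 92.2 on TNF-α arrays. A reporter is called above background on an array when it exceeds that peak by 3 SD of the values below it, as 279 to 319 reporters did per control array and 227 to 248 per TNF-α array. The background therefore separated the groups, and any other difference between the arrays cannot be told apart from TNF-α. After background correction and quantile normalization, 642 reporters reached the minimum for testing, a corrected density of 32 on at least 3 arrays. Of these, 22.7% passed with TNF-α (limma, adjusted p below 0.05), 12.9% as higher and 9.81% as lower, with a median change of 0.01 on the log2 scale. These 146 calls, 83 higher and 63 lower, became 163 and 41 without normalization, 260 and 31 when arrays were scaled to the median of reporters above background on all arrays, 57 and 97 with scaling to the median of tested reporters, and 39 and 81 in the authors' processed values. With any 1 array left out, 70 to 91 reporters passed. Of the 642 reporters, 203 were above background on all arrays, so shares over all tested reporters include many dim ones. With testing limited to reporters above background on at least 3 arrays, 51 of 277 passed as higher and 56 as lower. Log2 changes are TNF-α minus control on a scale with 50 added to the corrected density, which understates changes of dim reporters. With 3 arrays a group, precision is limited throughout.

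Of the 6 members, miR-34a and miR-34c* were above background on all arrays, miR-34c on 1 control and 1 TNF-α array, and miR-34b-5p, miR-34b-3p and miR-449a on none. Of the members, 4 reached the minimum for testing, none of them through the TNF-α arrays alone. miR-34a rose with TNF-α, and miR-34c, miR-34c* and miR-34b-3p did not pass the test, which makes 1 of 4 tested members higher beside the 12.9% over all reporters. None was lower, and at an unadjusted p under 0.05 in limma the count was the same. Shares over all reporters were taken at the adjusted p only, so counts at an unadjusted p, here and below, have none beside them. In densities as scanned, TNF-α arrays lay above all control arrays for 5 of the 6 members, all except miR-34c*, and for 38.2% of all reporters.

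**Figure D1:**
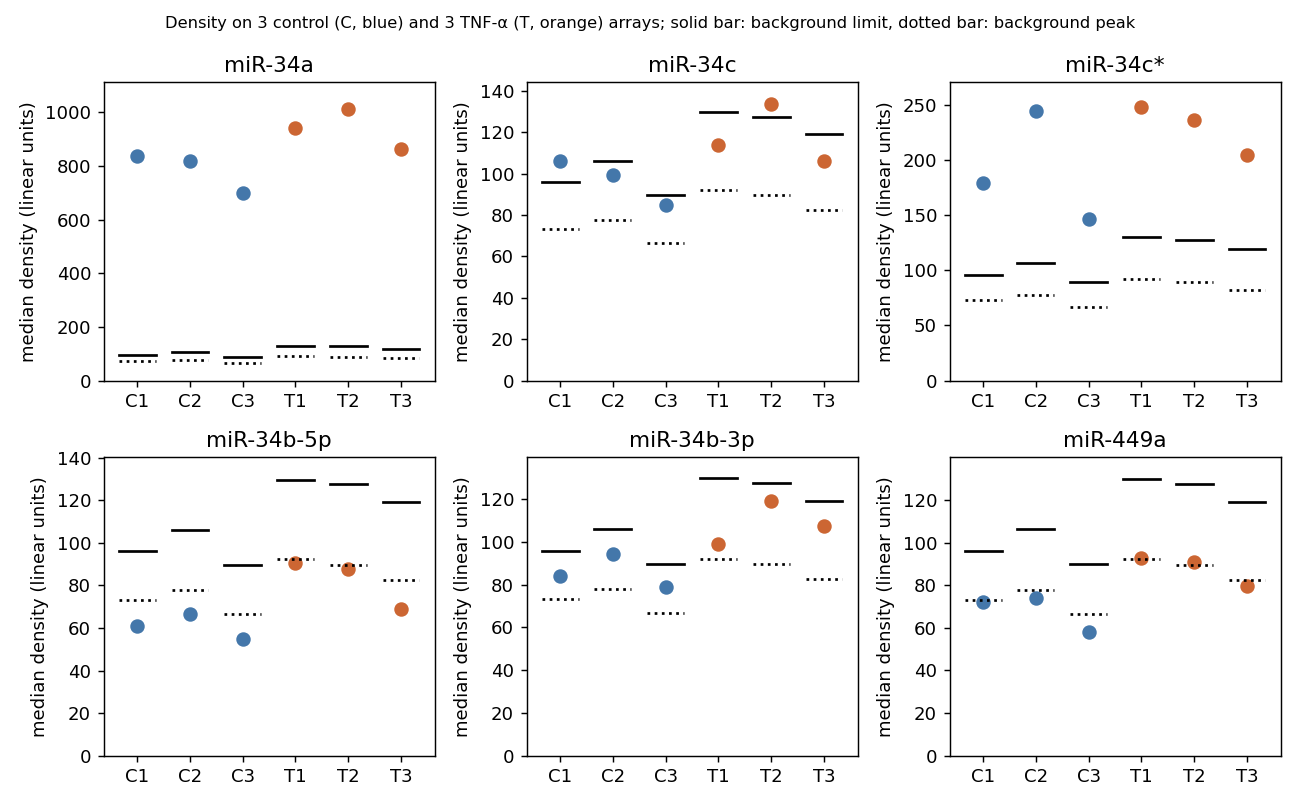
Median density (linear units) of each family member on 3 control arrays (C1 to C3, blue) and 3 TNF-α arrays (T1 to T3, orange), with the background limit (solid bar) and background peak (dotted bar) of the same array. miR-34a and miR-34c* exceed the limit on all arrays, whereas miR-34b-5p, miR-34b-3p and miR-449a stay below it and miR-34c exceeds it on C1 and T2.

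miR-34a, the member most studied as a p53 target, had densities of 836, 817 and 701 on control arrays and 939, 1011 and 864 on TNF-α arrays. The lowest TNF-α array thus lay above the highest control array. The mean was 785 ± 73.4 in controls and 938 ± 73.5 with TNF-α (SD, n = 3), a ratio of 1.20. The within-array SD that the authors deposited with each density was 43.6 to 69.9 for miR-34a, but what it was taken over is not stated. Among the 203 reporters above background on all arrays, the median ratio of mean densities was 0.992, and 37 had a larger ratio than miR-34a. Groups without overlap and higher densities with TNF-α were seen for 19.2% of these 203 reporters.

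After quantile normalization miR-34a was at 9.56, 9.41 and 9.45 (log2) on control arrays and at 9.995, 10.03 and 10.05 on TNF-α arrays. The groups did not overlap, as for 20.4% of tested reporters in that direction. It rose by 0.55 ± 0.07 on the log2 scale (SE, n = 3 per group; 95% interval 0.39 to 0.71), or 1.47-fold, with an adjusted p of 0.00227 in limma. Of the 642 tested reporters, 10 had a larger rise.

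The size of this rise depended on how the arrays were scaled. Quantile normalization sets a value by its rank, and miR-34a moved from ranks 89, 93 and 92 on control arrays to ranks 79, 78 and 77 on TNF-α arrays. The density found at rank 84, the median of these ranks, was 1078, 1075 and 945 on control arrays but 859, 908 and 784 on TNF-α arrays. The density at this rank, held by different reporters on each array, was thus lower on every TNF-α array, while that of miR-34a was higher. Relative to the median density of the 203 reporters above background on all arrays, miR-34a was at 1.58, 1.38 and 1.44 on control arrays and at 1.85, 1.90 and 1.85 on TNF-α arrays. These ratios, 1.47 ± 0.102 and 1.87 ± 0.0264 (SD, n = 3), differed 1.27-fold between groups, without overlap. No share over all reporters was taken for this ratio.

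With the arrays scaled to the median of those reporters, miR-34a changed by 0.35 and passed (adjusted p = 0.0137, limma), and with cyclic loess by 0.40 (adjusted p = 0.00436). Under the first of these scalings 40.5% of tested reporters passed as higher, and their median was itself at 0.24. Under the second 13.6% passed as higher, with a median of 0.01. The call was lost without normalization (0.26, adjusted p = 0.0739, limma, median of tested reporters 0.14, 25.4% passed as higher). It was also lost in the authors' processed values (0.23, adjusted p = 0.0586, median -0.12, 13.7% passed as higher). With the arrays scaled to the median of the tested reporters it was lost too (0.09, adjusted p = 0.487), where 8.88% passed as higher. In the processed values miR-34a was at 767, 743 and 701 in controls and at 856, 888 and 871 with TNF-α. The ratio of means was 1.18, again without overlap, for which no share over all reporters was taken. Every alternative gave a value above 0, and leaving out any 1 array left the call in place (0.52 to 0.58).

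**Figure D2:**
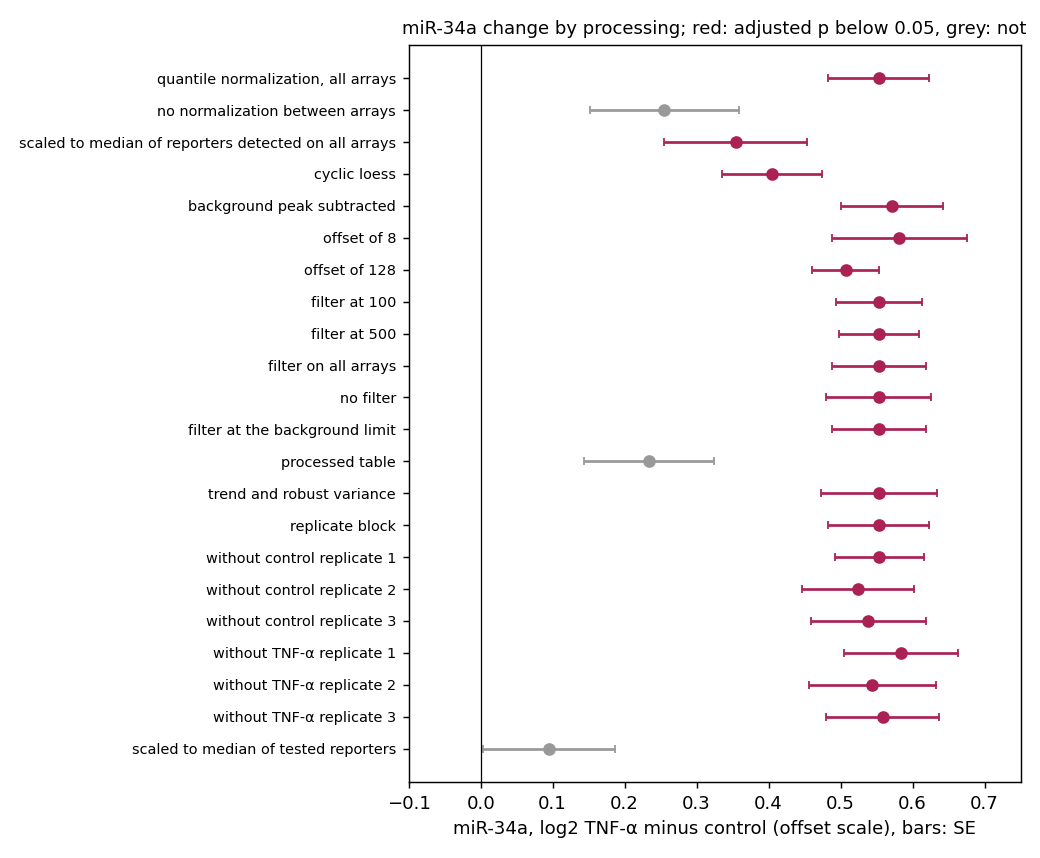
Change of miR-34a with TNF-α (log2, TNF-α minus control; bars, SE of the fit) under quantile normalization and each alternative; red points have an adjusted p below 0.05 in limma and grey points do not. All 22 values lie above 0, from 0.09 to 0.58, and the 3 grey points are those without normalization, from the processed table and with scaling to the median of tested reporters.

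**Figure D3:**
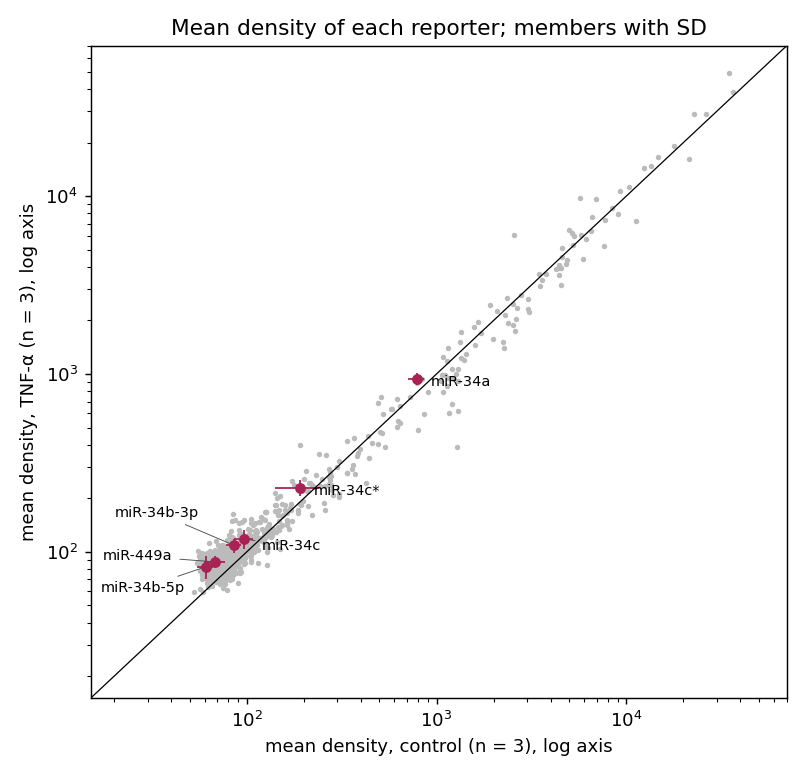
Mean density of each reporter in controls (x axis, n = 3) and with TNF-α (y axis, n = 3), both on log axes, with the line of equal values; family members are red with their SD. miR-34a lies at 785 and 938, above the line, and the 4 dimmest members lie in the cloud of background reporters, which as a whole sits above the line.

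The other arm of the miR-34a hairpin, miR-34a*, was above background on no array. It had densities of 83.8, 79.2 and 67.0 on control arrays and 92.4, 100.6 and 90.4 on TNF-α arrays. It reached the minimum for testing on the TNF-α arrays alone and did not pass (0.07 ± 0.08, SE, adjusted p = 0.570, limma).

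Mir34c encodes miR-34c and miR-34c*. Despite its asterisk, miR-34c* had the higher mean densities, 190.1 and 229.7 beside 96.7 and 118.0 for miR-34c, in controls and with TNF-α. Which arm was more abundant was not tested, as densities of different reporters were not calibrated. miR-34c* had densities of 179, 244 and 147 on control arrays and 248, 236 and 205 on TNF-α arrays. The groups overlapped, and control replicate 2 lay above 2 of the 3 TNF-α arrays. Means were 190.1 ± 49.5 and 229.7 ± 22.5 (SD, n = 3), a ratio of 1.21. The change of 0.24 ± 0.14 (SE; 95% interval -0.07 to 0.55) did not pass (adjusted p = 0.248, limma). It passed without control replicate 2 (0.39, adjusted p = 0.0494) and with scaling to the median of reporters above background on all arrays (0.38, adjusted p = 0.0214). With the background peak of each array subtracted, miR-34c* went from 117.5 ± 44.2 to 141.7 ± 17.6 and miR-34a from 712 ± 68.6 to 850.2 ± 70.1, which are ratios of 1.21 and 1.19.

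miR-34c had densities of 106.29, 99.2 and 84.6 on control arrays and 114, 134 and 106.33 on TNF-α arrays. The lowest TNF-α value and the highest control value were almost equal. Above the background peak, the control values were 33.0, 21.4 and 18.0 and the TNF-α values 21.6, 44.4 and 23.8, so the groups overlapped. The change of 0.10 ± 0.09 (SE; 95% interval -0.11 to 0.31) did not pass (adjusted p = 0.474, limma). It passed with scaling to the median of reporters above background on all arrays (0.35, adjusted p = 0.0204), a scaling under which 40.5% of tested reporters passed as higher.

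The members from Mir34b were both below the background limit on all arrays. miR-34b-3p, which shares its seed with miR-34c*, had densities of 84.25, 94.2 and 79.0 on control arrays and 99.2, 119 and 107 on TNF-α arrays. The densities did not overlap, but the normalized values did, with a change of 0.13 ± 0.10 (SE; 95% interval -0.09 to 0.34, adjusted p = 0.389, limma). It passed as higher without normalization (0.30, adjusted p = 0.0446), as did 25.4% of tested reporters, and with scaling to the median of reporters above background on all arrays (0.40, adjusted p = 0.0134). miR-34b-5p had 60.9, 66.5 and 54.8 on control arrays and 90.6, 87.6 and 68.9 on TNF-α arrays. Each of these values lay below the background peak of its own array. It was not tested, and with no filter on dim reporters its change was 0.22 (adjusted p = 0.103, limma), where 7.79% of all reporters passed as higher.

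miR-449a had densities of 72.0, 73.9 and 58.2 on control arrays and 92.9, 90.7 and 79.7 on TNF-α arrays, below the background peak on 4 of the 6 arrays. It was likewise not tested, and with no filter its change was 0.13 (adjusted p = 0.296, limma). Its neighbours miR-449b (means 70.3 and 83.2) and miR-449c (67.8 and 82.1), and the other arm miR-449a* (66.5 and 82.6), exceeded the limit on no array. A level of the miR-449 cluster was therefore not detectable above background in either group. As both groups were below the limit, the log2 changes given for miR-34b-5p, miR-34b-3p and miR-449a are not read as folds.

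The difference between miR-34a and another member can be read within each array. miR-34c* was the only other member above background on all arrays. On the quantile-normalized scale its difference to miR-34a was larger with TNF-α by 0.32, with overlapping groups (exact two-sided permutation test over the 6 arrays, p = 0.3, where the smallest this design allows is 0.1). On unnormalized log2 densities the same difference was -0.04 (exact permutation p = 0.9). The other members lay at or near background, so their differences set miR-34a against the background level of the array and carry no test of the family. These were 0.45 for miR-34c, 0.43 for miR-34b-3p, 0.42 for miR-449a and 0.33 for miR-34b-5p on the normalized scale, and -0.03, -0.08, -0.11 and -0.17 on unnormalized densities.

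**Figure D4:**
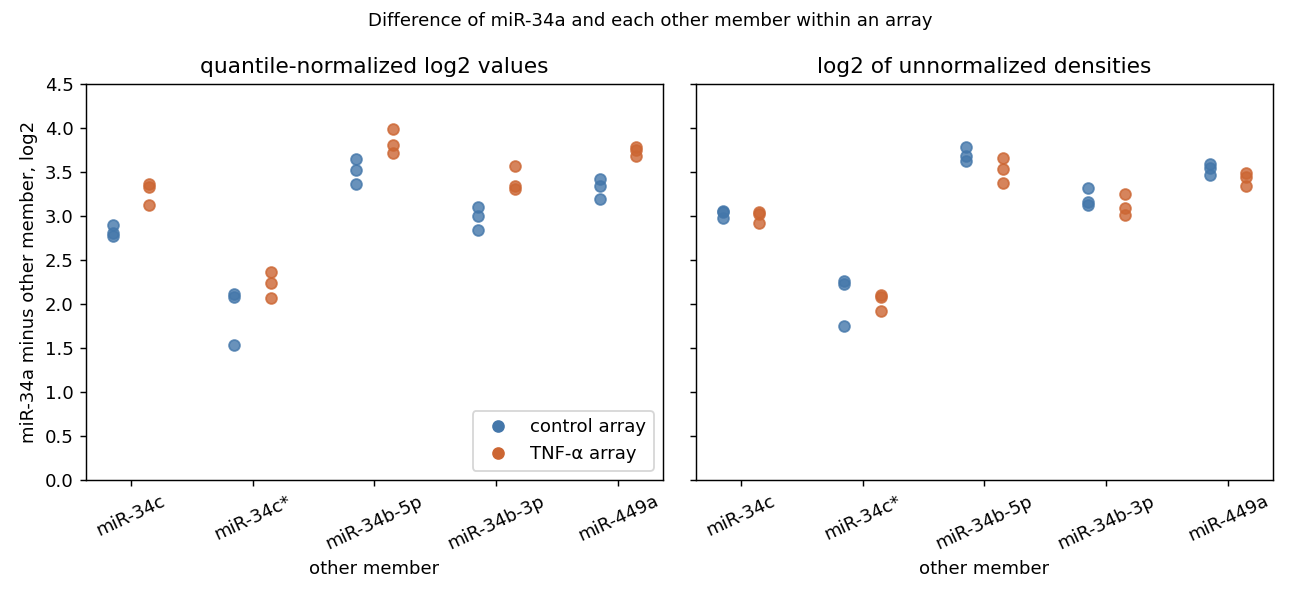
Difference between miR-34a and each other member on the same array (log2), for 3 control arrays (blue) and 3 TNF-α arrays (orange), with quantile-normalized values on the left and unnormalized densities on the right. On the left TNF-α arrays lie higher without overlap for all members except miR-34c*, and on the right the groups overlap for every member.

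Among the 202 other reporters above background on all arrays, the normalized values most like those of miR-34a over the 6 arrays were those of miR-30d (Pearson r = 0.994), miR-690 (0.991), miR-466f (0.989), miR-149* (0.986) and miR-341* (0.982). The 6 arrays form 2 groups, so any reporter that differs between them correlates highly. miR-30d, of a family reported to lower p53 mRNA, went from 492 ± 77.5 to 688 ± 26.4 (SD, n = 3) and rose by 0.71 ± 0.07 (SE, adjusted p = 0.000979, limma). miR-341*, whose gene lies in the imprinted Dlk1-Dio3 region, went from 2566 ± 577 to 6086 ± 524 and rose by 1.26 ± 0.09. miR-690 rose by 0.63 ± 0.07, miR-466f by 0.35 ± 0.07 and miR-149* by 0.22 ± 0.06. For miR-149*, 14 of 21 alternatives ended the call, including the removal of any 1 array (0.20 to 0.23), and it was -0.06 with scaling to the median of tested reporters.

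Of 13 miRNAs that p53 induces or helps to mature, 7 were above background on all arrays and 11 were tested. Among the 11 was miR-203, which reached the minimum for testing through the TNF-α arrays alone and did not pass. Over all tested reporters 12.9% passed as higher and 9.81% as lower, with a median change of 0.01. Among the 277 above background on at least 3 arrays, 51 and 56 did. Of the 11 in the list, 0 passed as higher and 2 as lower, with a median change of -0.08. At an unadjusted p under 0.05 in limma, 1 was higher and 4 were lower, for which no share over all reporters was taken. The split depended on scaling. It was 2 higher and 1 lower with the median of reporters above background on all arrays, beside 260 and 31 of 642 tested. With cyclic loess the split was 1 and 3, beside 87 and 73 of 642. In the processed values it was 0 and 4 of 9 tested, beside 39 and 81 of 285. With the median of tested reporters it was 0 and 7, beside 57 and 97 of 642. miR-194, transcribed with miR-192 or miR-215 from p53-induced genes, went from 127 ± 16.7 in controls to 99.4 ± 13.6 with TNF-α (SD, n = 3). It fell by 0.56 on the log2 scale (SE 0.10, adjusted p = 0.00819), was above background on control arrays only, and was at least 1.11-fold lower. miR-215 (-0.40 ± 0.12, adjusted p = 0.0430, limma) exceeded background on a single control array, so its log2 change is not read as a fold. Of 15 alternatives, 10 ended its call, including the removal of control replicate 1 (-0.46), 2 (-0.38) or 3 (-0.36) and of TNF-α replicate 2 (-0.29) or 3 (-0.42). The brightest that did not pass were miR-16 (-0.11), which restrains G1 cyclins, miR-145 (0.17), a driver of the contractile VSMC state, and miR-22 (-0.08). With scaling to the median of tested reporters miR-16 (-0.38, adjusted p = 0.00922, limma) and miR-22 (-0.35, adjusted p = 0.0205) passed as lower, as did miR-16 in the processed values (-0.28, adjusted p = 0.0263). miR-145 passed as higher with the median of reporters above background on all arrays (0.36, adjusted p = 0.0154, limma) and with cyclic loess (0.29, adjusted p = 0.0317).

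Among miRNAs reported to target p53 mRNA itself, 2 of 4 tested were higher and 0 lower, also at an unadjusted p under 0.05 in limma, with a median of 0.23, beside 12.9% higher and 9.81% lower over all tested reporters. With scaling to the median of tested reporters 0 of 4 passed, beside 57 higher and 97 lower of 642. The 2 that were higher with quantile normalization were miR-30d and miR-25. miR-25 went from 617 ± 91.3 to 721 ± 12.2 and rose by 0.39 ± 0.08 (adjusted p = 0.0115, limma). The call of miR-25 was lost without normalization (0.23), in the processed values (0.25) and with scaling to the median of tested reporters (0.07), and that of miR-30d with the last (0.33). miR-125b-5p, a bright reporter at 26201 ± 2119 and 28916 ± 989, had higher densities on all TNF-α arrays than on any control array. Its change was 0.00 ± 0.08 after quantile normalization. That method sets a value by its rank, so 0.00 is not read as an absence of change. Scaling to the median of reporters above background on all arrays gave 0.24, and unnormalized values gave 0.14. The authors' processed values gave 0.14, cyclic loess 0.01 and scaling to the median of tested reporters -0.02. It passed under none of 21 alternatives. miR-504 was above background on no array (0.07 ± 0.10).

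Of 11 miRNAs linked to senescence, all tested, 9 were above background on all arrays. Over all tested reporters 12.9% passed as higher and 9.81% as lower. Among the 277 above background on at least 3 arrays, 51 and 56 did. Of the 11, 2 were higher and 1 lower, with a median of -0.04. miR-29b, which represses collagen mRNAs, went from 240.0 ± 21.4 to 354 ± 45.2 and rose by 0.60 ± 0.08 (adjusted p = 0.00227, limma). miR-29c, of the same family, went from 1353 ± 147 to 1716 ± 243 and rose by 0.43 ± 0.10 (adjusted p = 0.0175). Its call was lost without normalization (0.34), without control replicate 1 (0.39) and with scaling to the median of tested reporters (0.18). miR-494, of the same region as miR-341*, went from 1290.5 ± 146 to 616 ± 108 and fell by 0.90 on the log2 scale (SE 0.10, adjusted p = 0.00114). miR-21 (-0.18), miR-29a (-0.04) and miR-22 did not pass, though with control replicate 1 left out miR-21 was lower (-0.29, adjusted p = 0.0333, limma).

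Of 9 miRNAs that slow the G1 phase of the cell cycle, all tested, 6 were above background on all arrays. Of the 9, 1 reached the minimum for testing through the TNF-α arrays alone and did not pass. Over all tested reporters 12.9% passed as higher and 9.81% as lower. Among the 277 above background on at least 3 arrays, 51 and 56 did. In this list 1 was higher and 1 lower, with a median of -0.03. The split was 3 higher and 0 lower with the median of reporters above background on all arrays, beside 260 and 31 of 642 tested. It was 0 and 2 with the median of tested reporters, beside 57 and 97 of 642. miR-15b, which lowers G1 cyclins, rose by 0.41 ± 0.07 (adjusted p = 0.00819, limma), from 788 ± 99.7 to 888 ± 94.3. The call was lost without normalization (0.17), in the processed values (0.11) and with scaling to the median of tested reporters (0.01). miR-322 (-0.25 ± 0.07, adjusted p = 0.0355) was above background on control arrays only, at 105.6 ± 7.71 and 102 ± 5.78, and has no bound above 1. Of 18 alternatives, 10 ended its call, including the removal of any 1 array (-0.27 to -0.21), and it was 0.01 with scaling to the median of reporters above background on all arrays. miR-26a (0.18), miR-16 and miR-26b (-0.03) did not pass. Of 7 tested miRNAs of clusters driven by E2F or MYC, miR-25 was higher and 0 were lower, with a median of -0.02, beside the same 12.9% and 9.81%. At an unadjusted p under 0.05 in limma, 2 were higher and 1 was lower, again without a share over all reporters. miR-93 (0.39 ± 0.12, adjusted p = 0.0567), miR-106b (0.12) and miR-20a (-0.05) did not pass. miR-93 passed under 5 of 20 alternatives, among them without control replicate 1 (0.50) or TNF-α replicate 1 (0.48).

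**Figure D5:**
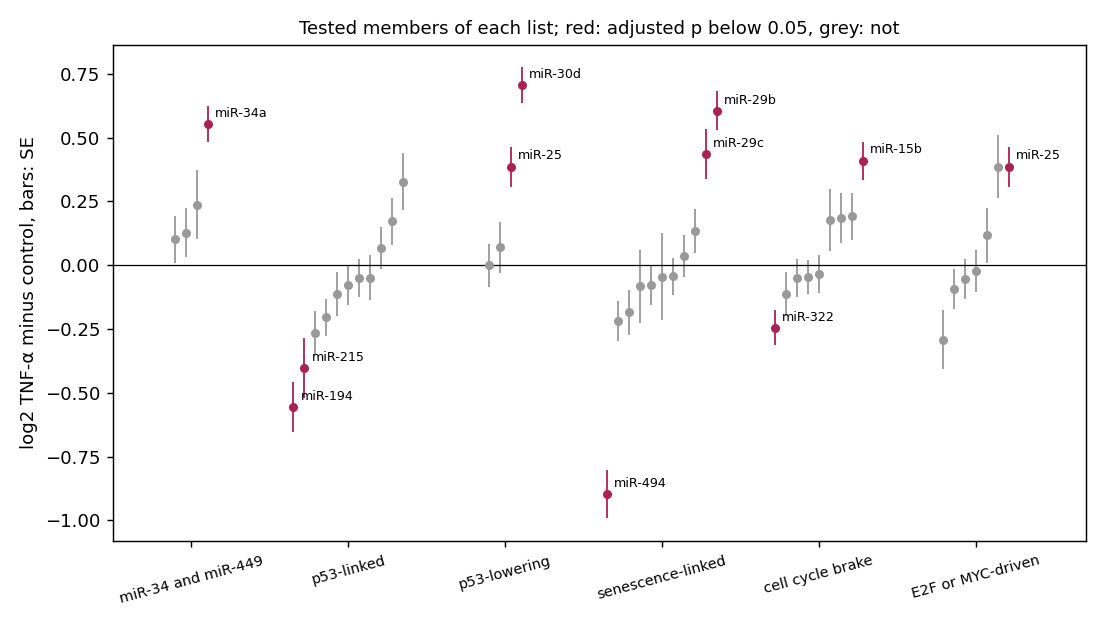
Change with TNF-α (log2, TNF-α minus control; bars, SE) of each tested member of the family and of the lists of related miRNAs; red points have an adjusted p below 0.05 in limma and are named. miR-34a is the red point of the family at 0.55, and the red points of the p53-linked list, miR-194 and miR-215, lie below 0.

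Markers of cell types were read in the same arrays. All 5 miRNAs listed for smooth muscle, miR-143, miR-145, miR-21, miR-221 and miR-222, were above background on all arrays. Of these, 0 of 5 passed the test in limma, also at an unadjusted p under 0.05. Whether each is particular to smooth muscle was not tested. All 7 epithelial markers, among them miR-200c, miR-141 and miR-205, were above background on no array, and of the 5 markers of multiciliated epithelium miR-34c was the only one above it on any. The summed density of those 5, background included, ranged from 324 to 384 in controls and from 409 to 486 with TNF-α. Of 6 blood cell markers 5 were above background on no array, and miR-150 was so on 2 control arrays. The endothelial marker miR-126-3p was above background on 3 control and 2 TNF-α arrays (-0.17 ± 0.10, adjusted p = 0.267, limma). Of 6 striated muscle markers 4 were above background on no array, among them miR-1a and miR-133a. miR-206, of the same list, was above background on all arrays, went from 257 ± 19.9 to 189 ± 17.7 (SD, n = 3) and fell by 0.49 on the log2 scale (SE 0.07, adjusted p = 0.00339, limma), a call that held under all 20 alternatives run. The liver marker miR-122 was above background on no array (87.4 ± 5.42 and 85.9 ± 5.34), yet it passed as lower (-0.26 ± 0.06, adjusted p = 0.0225, limma). Its call ended under 6 of 15 alternatives, including the removal of control replicate 2 (-0.24) or 3 (-0.26) or TNF-α replicate 2 (-0.27), and it was 0.03 with the median of reporters above background on all arrays. Of 3 neuronal markers, miR-128 was above background on all arrays (0.02 ± 0.09) and the others on none. The part of these markers in the results on the family was not tested.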

How the data were processed

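Each of the 6 arrays had 1 colour, Cy5, which marked RNA through an oligonucleotide ligated after polyadenylation, per the labels. The authors deposited a median density and its standard deviation for each reporter and array, which per the file headers are linear intensities, with background left in. They also deposited processed intensities, whose scaling is not stated and which served as an alternative. Scanner and software: not given in the sources used here.

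Densities were corrected with normexp, an offset of 50 was added, and log2 values were quantile normalized and tested in limma 3.58.1 (R 4.3.3), with the group as the only term and Benjamini-Hochberg adjustment over the 642 reporters with a corrected density of at least 32 on at least 3 arrays. P-values rest on the spread between arrays within a group, moderated over all tested reporters. That spread mixes differences between cultures and between arrays. The background peak is the mode of an array's log2 densities (bandwidth 0.05). miRNAs named are the family, up to 5 most like miR-34a, and from each list all that passed and up to 3 of the brightest others; markers that passed were named after their values were seen. List members were matched by exact name. Members, lists and tests were chosen with earlier results of these data known. Alternatives covered scaling, background, offset, filter, source, variance model, replicate block and each array left out; scaling to the median of tested reporters was added after seeing the data. The procedure was tested on simulated arrays, with equal numbers of rises and falls among reporters above background on all arrays. Signal in these did not differ in scale between groups, so they do not bear on the choice of scaling. All deposited columns were assigned to samples.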

Additional observations from a re-analysis of the deposited data

How the results depend on the processing

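For miR-34a, scaling between arrays and the source of the values were the choices that ended the call, and the cause was not tested. The rise of miR-34a was 0.26 without normalization, 0.23 in the processed values and 0.095 with scaling to the median of tested reporters, none of which passed, and it passed under the other 18 of 21 alternatives. The 146 calls became 291 with scaling to the median of reporters above background on all arrays, 77 and 45 with filters at 100 and 500, where fewer reporters were tested, and 70 to 91 with 1 array left out. The difference of miR-34a to other members became -0.048 (miR-34b-3p), -0.14 (miR-34b-5p), -0.027 (miR-34c*) and -0.074 (miR-449a) without normalization and with both median scalings, which cannot alter it further. It was -0.014 for miR-34b-5p with an offset of 8 and -0.0039 for miR-34c* in the processed values. Without normalization, with the median of reporters above background on all arrays and in the processed values, miR-21 was at 0.076, 0.18 and 0.12 and miR-29a at 0.13, 0.23 and 0.11; miR-29a was at 0.069 with cyclic loess. With that median, miR-322 was at 0.010, miR-122 at 0.030, miR-20a at 0.099 and miR-34a*, which then passed, at 0.36. miR-106b was at -0.026 in the processed values and -0.10 with the median of tested reporters, where miR-149* was at -0.063. With 1 array left out, miR-504 ranged from -0.018 to 0.17, miR-29a from -0.076 to 0.0098 and miR-26b from -0.085 to 0.015. The number of p53-linked miRNAs that passed ranged from 0 (filter at 500) to 7, all lower (median of tested reporters). Over all tested reporters 45 of 102 and 154 of 642 passed under these settings. With the replicate number as a block, miR-34a kept its call (0.55, adjusted p = 0.0214, limma) and 103 reporters passed. Deviations of same-numbered arrays correlated at 0.0422, 0.0156 and 0.153, and those of differently numbered arrays at -0.131 to 0.0989. Whether same-numbered arrays form pairs was not tested. Signal close to background limits every member except miR-34a and miR-34c*.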
